A study of Rattus norvegicus with 287 samples.

Results

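Slow and fast muscle fibre genes were taken as 10 genes that separate slow, oxidative muscle fibres from fast ones: Myh1, Myh2, Myh4, Myh7, Myl2, Myl3, Tnnt1, Tnni1, Tnnc1 and Atp2a2. They were matched by gene symbol among the 32623 genes of the deposited counts, and 8 of the 10 were found; Myh2 and Myh4 were not found by symbol and are not analysed here. For 3 minutes a day the rats' porta hepatis was exposed to focused ultrasound (pFUS) at 1.1 MHz, or to a sham procedure called control, all under isoflurane, and RNA was sequenced from 8 tissues in 287 libraries, 52 of them muscle and 48 adipose. The labels name neither the muscle nor the fat depot.

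At 7 weeks, muscle came from obese Zucker Diabetic Fatty (ZDF) rats, a strain with a defective leptin receptor, given pFUS (n = 5) or sham (n = 5), and from lean Zucker rats given pFUS (n = 4) or sham (n = 4). At 3 days the groups were obese ZDF controls, pFUS in the morning only labelled x1 and pFUS in the morning only labelled x10, with 4 rats each. At 4 weeks there were 4 obese ZDF rats each on AM & PM x10, AM & PM x1 and AM only x10, with no sham muscle analysed here. A separate 7-week cohort held rats labelled DIO-stz given pFUS (1 female and 3 males) or sham (2 females and 2 males), and 2 females labelled DIO Diet Resistant given pFUS. All ZDF and lean Zucker rats were male.

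A fibre's speed follows largely from its myosin heavy chain. Slow fibres use the chain encoded by Myh7, together with the light chains Myl2 and Myl3, the slow troponins Tnnt1, Tnni1 and Tnnc1 and the calcium pump Atp2a2 (SERCA2), and they carry more myoglobin and mitochondria. Fast fibres use the chains encoded by Myh2, Myh1 and Myh4 with fast troponins and a different calcium pump, and they lean more on glycolysis. Limb muscles of the rat are mostly fast, and slow fibres are gathered in particular muscles and in the deeper parts of others.

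The gene called Myh1 needs a caution that touches every fast myosin value. Its row, ENSRNOG00000049695, summed 6 transcripts in the deposited isoform counts. The RefSeq gene table of assembly GRCr8 places Myh2, Myh1 and Myh4 next to each other on chromosome 10 and lists Myh1 as a synonym of Myh2, so which fast chains the row holds cannot be told from the files; it is called the Myh1 row here. The other rows were ENSRNOG00000016983 for Myh7, ENSRNOG00000030848 for Myl2, ENSRNOG00000020955 for Myl3, ENSRNOG00000028041 for Tnnt1, ENSRNOG00000009073 for Tnni1, ENSRNOG00000018943 for Tnnc1 and ENSRNOG00000001285 for Atp2a2.

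The promoters of the 3 fast chains and of the slow troponin gene Tnnt1 are shown because the fast chains are near relatives and because Tnnt1 varied with the other slow genes in these muscles. RefSeq promoter windows (GRCr8) were matched for 8 of the 10 members, Myl2 and Tnnc1 having none, and each line gives the 250 bases before the annotated start, 5′ to 3′ on the gene's strand. Capitals mark the letters TATAAA on either strand and matches to the MEF2 consensus. The windows lie on the plus strand at chr10:52355489-52355738 for Myh2, chr10:52384662-52384911 for Myh1, chr10:52421898-52422147 for Myh4 and chr1:78348785-78349034 for Tnnt1.
Myh2: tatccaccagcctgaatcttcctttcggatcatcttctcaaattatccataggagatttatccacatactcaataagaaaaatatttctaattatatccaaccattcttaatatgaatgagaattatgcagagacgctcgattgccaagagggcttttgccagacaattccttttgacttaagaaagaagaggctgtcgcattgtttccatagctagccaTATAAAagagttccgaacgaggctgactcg
Myh1: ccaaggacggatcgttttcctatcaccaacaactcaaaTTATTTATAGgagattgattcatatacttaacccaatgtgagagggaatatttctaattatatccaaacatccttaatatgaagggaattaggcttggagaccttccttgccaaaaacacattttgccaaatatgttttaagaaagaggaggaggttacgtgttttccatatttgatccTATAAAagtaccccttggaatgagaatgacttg
Myh4: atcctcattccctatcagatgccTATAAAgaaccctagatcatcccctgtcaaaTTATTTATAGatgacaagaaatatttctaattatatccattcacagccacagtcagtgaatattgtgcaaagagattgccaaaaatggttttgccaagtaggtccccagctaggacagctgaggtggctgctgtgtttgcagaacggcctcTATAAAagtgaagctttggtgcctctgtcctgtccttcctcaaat
Tnnt1: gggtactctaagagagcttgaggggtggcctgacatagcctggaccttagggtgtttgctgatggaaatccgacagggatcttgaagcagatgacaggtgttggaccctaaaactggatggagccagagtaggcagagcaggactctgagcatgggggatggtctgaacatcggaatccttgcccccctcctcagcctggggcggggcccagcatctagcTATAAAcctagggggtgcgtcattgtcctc

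All 4 windows hold a TATAAA on the plus strand, beginning 30 bases before the start in Myh2 and Tnnt1 and 33 bases before it in Myh1. The 3 fast chains share the 20-base run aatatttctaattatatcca, which 5 of all 33469 windows hold on either strand. Myh2 and Myh1 had 67.8% identical bases in a global alignment, Myh2 and Myh4 56.5%, and Myh1 and Myh4 54.6%, against 47.1% between Myh1 and Tnnt1. The MEF2 consensus, named for a muscle transcription factor, was found in the windows of Myh1 and Myh4, where it overlaps a minus-strand TATAAA, and 2.96% of all windows hold it. Over the members with a window, TATAAA was present in 4 of 8 (12.9% of all windows), the E-box CANNTG in 6 of 8 (65.5%), the MCAT letters CATTCC in 3 of 8 (12.1%) and the CArG consensus in 2 of 8 (1.50%), all searched on both strands. A match is a description of letters and not a site.

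Total counts ran between 6027440 and 22125416 in muscle and between 5754208 and 17540932 in adipose libraries. All 52 muscle libraries had creatine kinase (Ckm) between 11020 and 71176 CPM (library-scaled counts, whose sum is the same in every library) and skeletal actin (Acta1) between 22939 and 77200 CPM, so the tissue label was met by its markers. In adipose tissue, 6 of 48 libraries had Ckm at 1000 CPM or more, and they are described with their members below. RNAs named as lacking a poly(A) tail took 0.00597 to 0.0297% of counts in the obese 7-week muscles and 4.03 to 9.30% in the lean ones, although the labels give 1 kit for muscle. Obese against lean at 7 weeks and this difference between libraries therefore cannot be told apart.

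The Myh1 row was the highest gene of muscle by median level. It ran between 48536 and 138860 CPM over the 52 libraries with a median of 84833 CPM. Myh7, the slow heavy chain, ran between 0.419 and 11731 CPM with a median of 490.6 CPM. The other slow members had similarly wide ranges, reaching 59.3 CPM for Myl2, 1352 for Myl3, 1329 for Tnnt1, 730 for Tnni1, 739 for Tnnc1 and 2816 for Atp2a2, and Atp2a2 alone among them was never below 66.6 CPM. The files give no lengths, so these levels are per library and not per length, and the order of genes by CPM, like any ratio of counts of 2 genes, also carries their lengths.

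Rats of the same group differed far more in the slow genes than in the Myh1 row. Within a group, the highest Myh7 level was a median of 46.9 times the lowest, and up to 3067 times in the lean pFUS rats, against a median of 1.39 times for the Myh1 row. Between 33.1% (the Myh1 row) and 57.9% (Myl2) of the variance of log2(CPM + 1) lay within groups. In bulk tissue, fewer slow fibres and less slow-fibre RNA per fibre cannot be told apart.

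**Figure D1:**
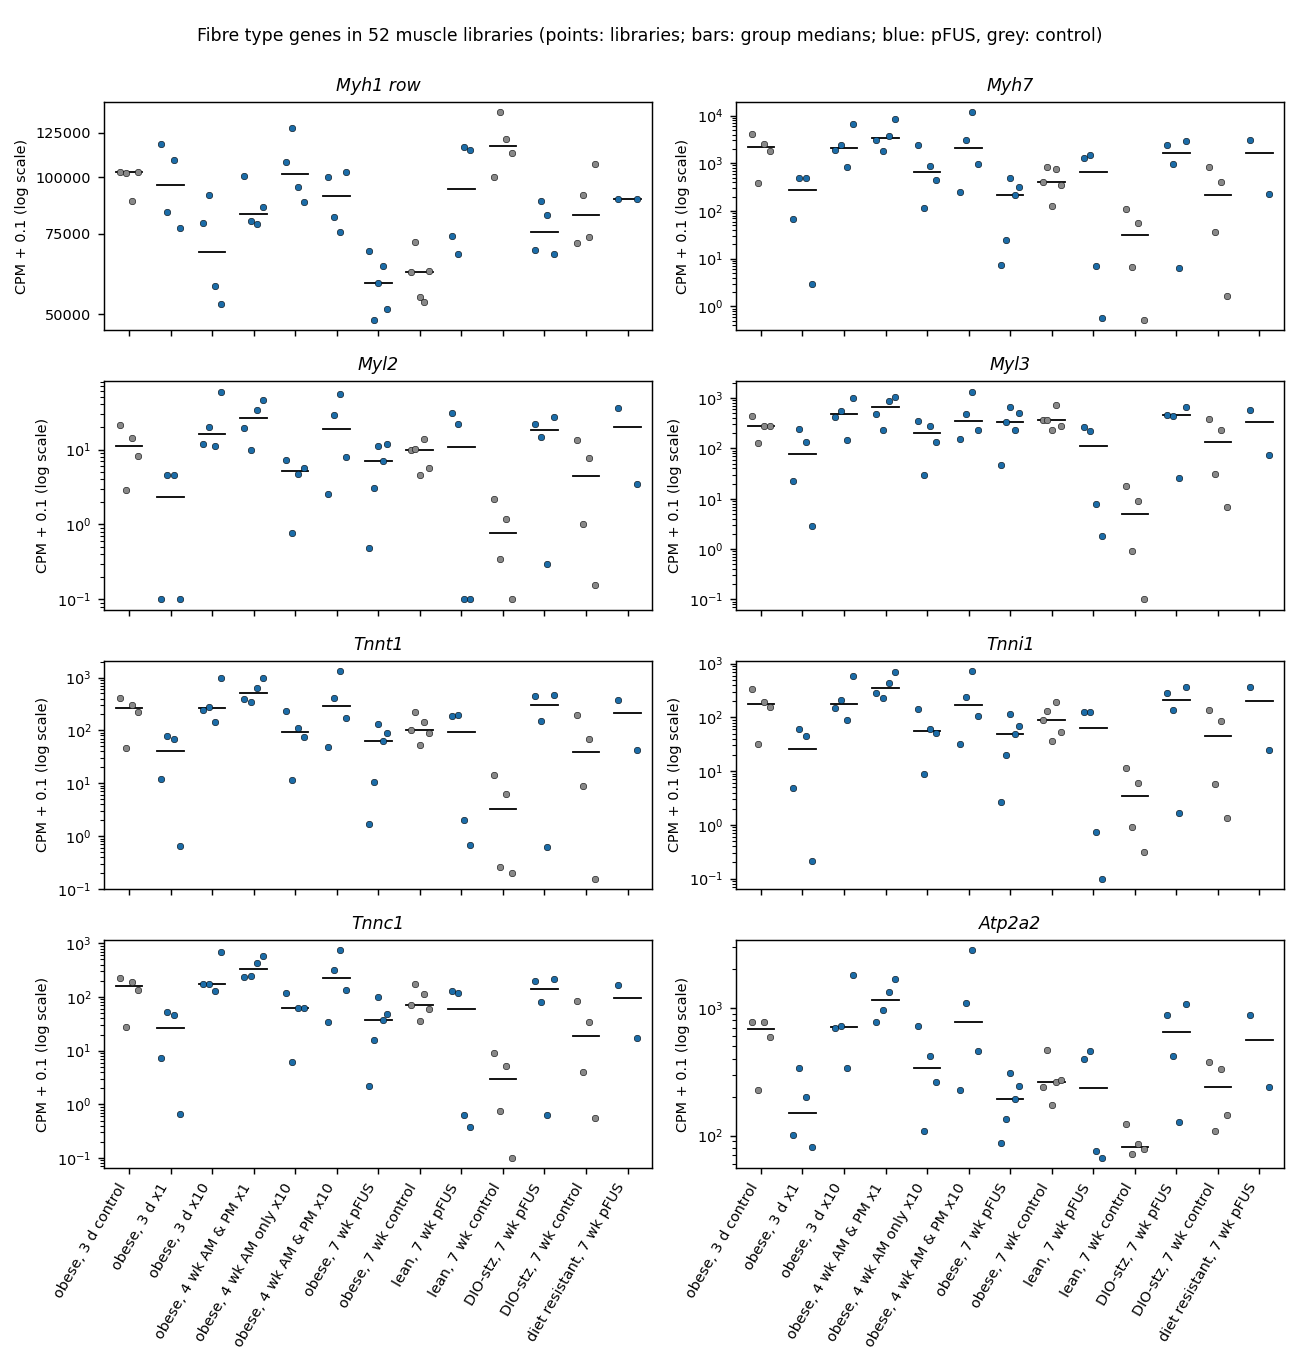
Level of each of the 8 members in every muscle library, as CPM + 0.1 on a log axis, with 1 point a rat and groups along the x axis. The Myh1 row keeps within 48536 to 138860 CPM, while Myh7 spans 0.419 to 11731 CPM and spreads widely inside most groups.

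The slow share, the counts of Myh7 as a percentage of those of Myh7 and the Myh1 row together, is a ratio of counts, not per length, and is compared between libraries only. It had a median of 0.745% over the 52 muscles. The lowest was 0.000371% in lean control 14, with an exact 95% binomial interval of 0.000101 to 0.00095%, and the highest was 13.4% in AM & PM x10 rat 31 at 4 weeks, with an interval of 13.3 to 13.5%; both intervals cover counting error only. The share was under 0.1% in 13 libraries, at 1% or more in 23 and at 5% or more in 3.

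Ordered by group median, the slow share was 0.0250% in lean controls, 0.249% in 3-day x1 rats, 0.287% in DIO-stz controls, 0.330% in obese 7-week pFUS rats and 0.652% in obese 7-week controls. It was 0.714% in AM only x10 rats, 0.859% in lean pFUS rats, 1.76% in Diet Resistant rats, 2.20% in DIO-stz pFUS rats and 2.25% in 3-day controls. The highest medians were 2.32% in AM & PM x10 rats, 2.43% in 3-day x10 rats and 3.76% in AM & PM x1 rats. Each of the 12 pairs of neighbours in this order overlapped, and so did each of the 12 pairs when the groups were ordered by any single member. The order mixes cohorts whose libraries differed. RNAs lacking a poly(A) tail took a median of 0.0103% of counts in obese 7-week muscles and 0.0110% in DIO ones. That median was 3.26% at 3 days, 3.50% at 4 weeks and 5.24% in lean muscles. The part of this difference in the order was not tested.

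**Figure D2:**
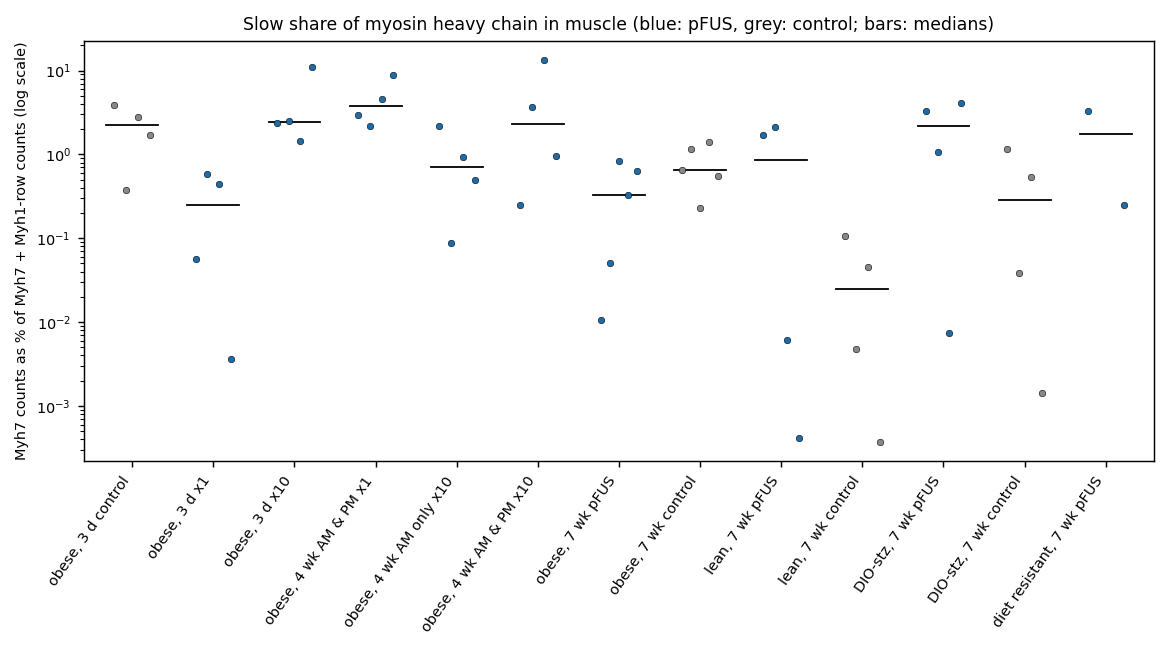
Slow share of myosin heavy chain, in percent on a log axis, in every muscle library by group, with 1 point a rat. The groups run between 0.000371% and 13.4%, and neighbouring groups overlap.

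The 7 slow members moved together from rat to rat. As deviations of log2(CPM + 1) from the group means over the 52 libraries, the 21 pairs of slow members had correlations of 0.848 to 0.992, with a median of 0.950. The Myh1 row was correlated negatively with each of them, between -0.575 and -0.453. These are descriptions: the genes share each library, its depth and the fixed sum of CPM.

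Among 7927 genes with a mean of at least 5 CPM in muscle, those most like the slow members were Myoz2 (r = 0.968), Ldhb (0.958), Tpm3 (0.955), Myom3 (0.909), Casq2 (0.903) and Myh3 (0.901), over the same 52 libraries. Myoz2 encodes a Z-disc protein of slow fibres, Ldhb the heart form of lactate dehydrogenase, Tpm3 slow tropomyosin, Myom3 an M-band protein, Casq2 the slow and cardiac calsequestrin and Myh3 the embryonic heavy chain. The least alike were Gpt2 (r = -0.777), an alanine aminotransferase, Phka1 (-0.754), a subunit of muscle phosphorylase kinase, Unc119b (-0.753) and Stbd1 (-0.743), a glycogen-binding protein; the median gene had r = -0.107. From lists of fibre genes, 9 other slow fibre genes had r between 0.811 and 0.968, 11 fast sarcomere and calcium genes all had negative r between -0.685 and -0.252, and 10 fast glycolytic genes likewise between -0.754 and -0.225. In the obese ZDF rats taken alone, 5 of the 6 most alike genes were again among the 6, and none of the 4 least alike.

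The transcripts inside the Myh1 row were not in fixed proportion, a pattern described after its values were seen. Transcript ENSRNOT00000045718 took 34.3 to 76.4% of the row with a median of 58.0%, ENSRNOT00000082871 took 9.03 to 43.0% (27.0%), ENSRNOT00000004295 took 1.63 to 41.4% (9.78%) and ENSRNOT00000004236 took 0.220 to 13.0% (2.49%). The remaining pair reached at most 2.17%. Over the 52 libraries, within-group deviations of log2(CPM + 1) of ENSRNOT00000004236, its level and not its share, had r = 0.873 with the slow members. Those of ENSRNOT00000004295 had r = 0.676, whereas ENSRNOT00000045718 had r = -0.682 and ENSRNOT00000082871 r = -0.510. Of the remaining pair, ENSRNOT00000085582, at 0 in 10 libraries, had r = 0.872 and ENSRNOT00000086599 had r = -0.084. The shares of 1 row sum to a whole, so they are not independent, and how the estimated counts divide reads among near-identical heavy chains was not tested.

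In the lean pFUS rats, whose slow shares split most widely, ENSRNOT00000004295 took 41.4 and 34.4% of the row in rats 16 and 17, against 5.33 and 5.20% in rats 18 and 19. Those same rats 16 and 17 had the higher Myh7 levels. ENSRNOT00000045718 was the larger in rats 18 and 19, at 73.9 and 73.4%, and took 38.3 and 41.3% in rats 16 and 17.

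**Figure D3:**
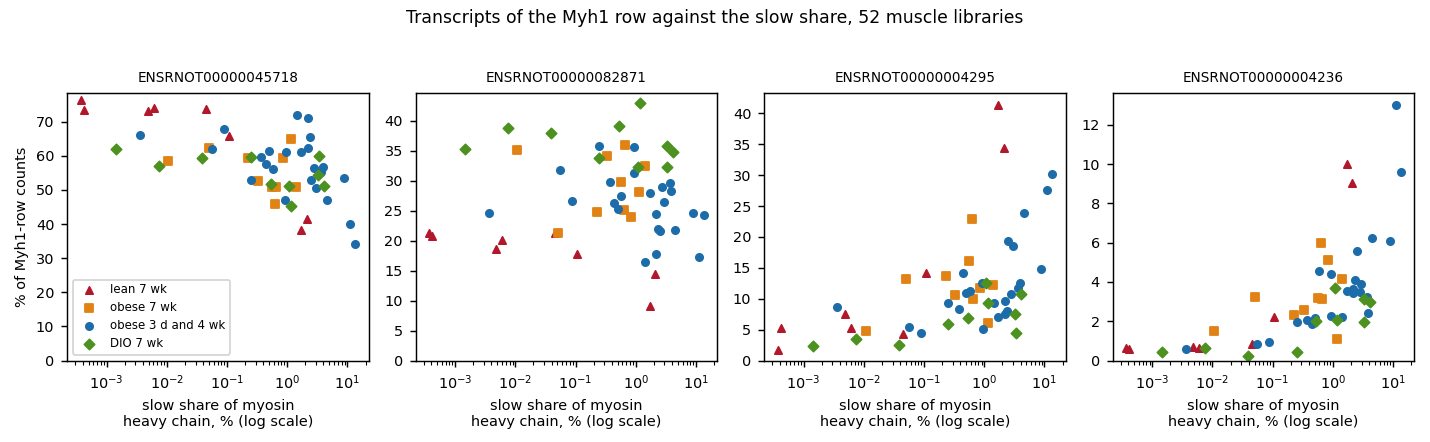
Share of the Myh1 row taken by each of its 4 larger transcripts, in percent, against the slow share of myosin heavy chain on a log axis, with 1 point for each of the 52 muscle libraries. ENSRNOT00000004236 and ENSRNOT00000004295 tend to be higher in libraries with a higher slow share, and ENSRNOT00000045718 lower, with exceptions. DIO-stz pFUS rat 7, with a slow share of 3.33%, has ENSRNOT00000004295 at 4.39%. AM & PM x1 rat 22, with a slow share of 2.18%, has ENSRNOT00000045718 at 71.1%.

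At 7 weeks, obese ZDF controls had more RNA of the slow fibre genes and less of the Myh1 row than lean Zucker controls. By edgeR's quasi-likelihood test with Benjamini-Hochberg adjustment over all genes at 0.05, 6 slow members rose, the Myh1 row fell and Myh7 missed the threshold. These 7 of 8 members stand beside 52.6% of 12577 genes called in the same comparison. The members had a median log2 fold change of 4.27, beside 0.07 over all genes.

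The Myh1 row had 61841, 71873, 54469, 53215 and 62034 CPM in obese controls 1 to 5, against 100053, 138860, 121082 and 113025 CPM in lean controls 11 to 14. Every obese control lay below every lean one, and the log2 fold change was -0.89 ± 0.23 (SE; edgeR adjusted p = 0.00368). Myh7 had 406, 837, 124, 763 and 348 CPM in the obese controls, against 107, 6.69, 54.7 and 0.419 CPM in the lean controls. These groups did not overlap either, but lean control 11 lay close under obese control 3, and the log2 fold change of 3.79 ± 1.77 had an edgeR adjusted p of 0.0838.

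Of the essential light chain Myl3, obese controls had 366, 370, 228, 739 and 281 CPM, against 17.7, 0.816, 9.10 and 0 CPM in lean controls. No lean control came near an obese one, and Myl3 was furthest apart among the members, by 6.10 ± 1.52 on the log2 scale (edgeR adjusted p = 0.00367). The calcium pump Atp2a2 had 238, 464, 172, 261 and 273 CPM in obese controls, against 124, 71.7, 85.1 and 78.4 CPM in lean controls. It rose by 1.78 ± 0.53 on the log2 scale without overlap (edgeR adjusted p = 0.00968).

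The slow troponins and the regulatory light chain followed the same order, with no overlap between the groups. For these and for the members above, how many of all genes likewise did not overlap was not counted. Tnnt1, which anchors the troponin complex to tropomyosin, averaged 123 ± 65.5 CPM in obese controls (SD, n = 5) and 5.20 ± 6.79 CPM in lean controls (SD, n = 4). The inhibitory subunit Tnni1 averaged 101 ± 64.6 CPM in obese controls and 4.50 ± 5.10 CPM in lean controls. The calcium-binding subunit Tnnc1 averaged 90.0 ± 54.5 CPM in obese controls and 3.64 ± 4.13 CPM in lean controls. Their log2 fold changes were 4.81 ± 1.66, 4.75 ± 1.61 and 4.84 ± 1.59, with edgeR adjusted p of 0.0241, 0.0220 and 0.0188. Myl2, the slow regulatory light chain, averaged 8.71 ± 3.71 CPM in obese controls and 0.850 ± 0.937 CPM in lean controls, and rose by 3.57 ± 1.39 on the log2 scale (edgeR adjusted p = 0.0410). Without lean control 12 or without lean control 14, 4 of the 8 members were called in place of 7.

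**Figure D4:**
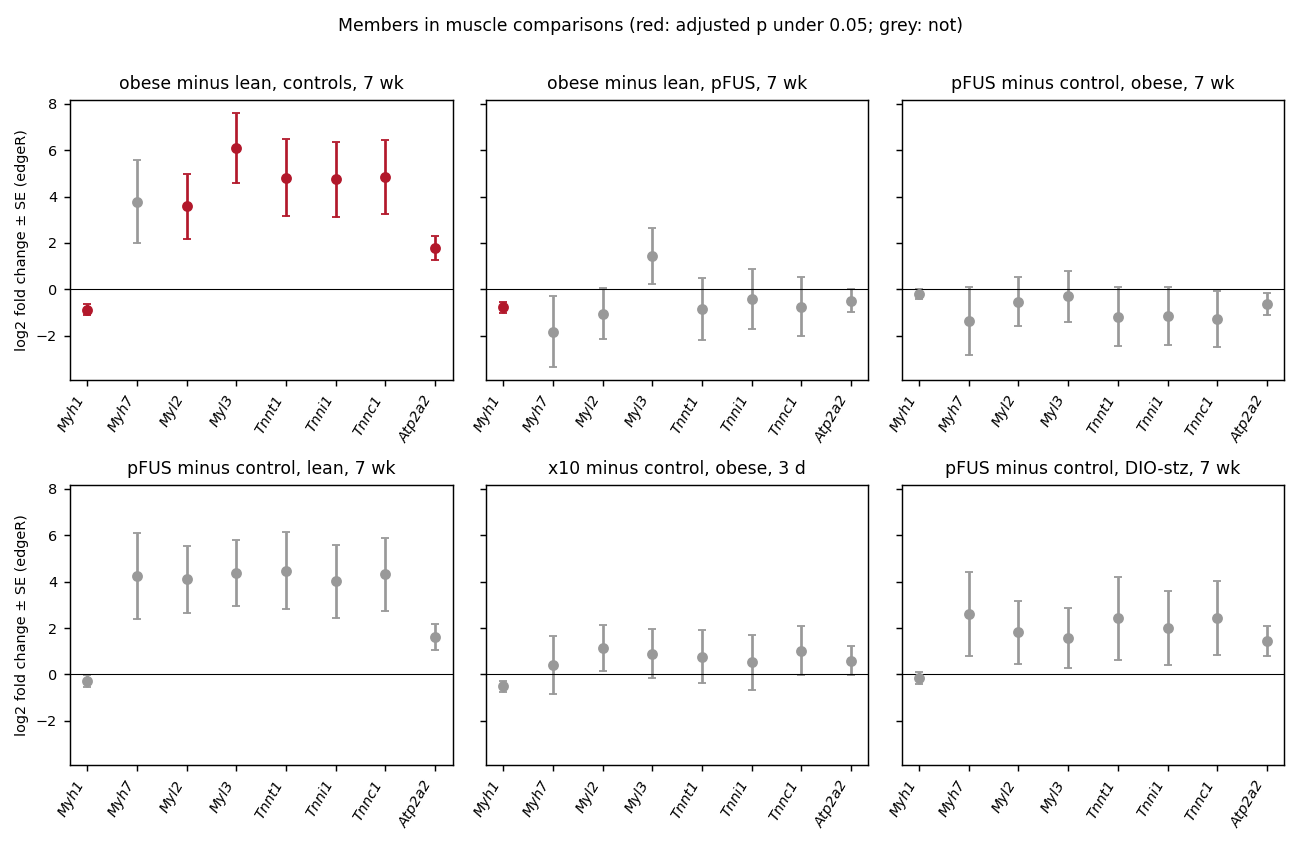
Log2 fold change of each member with its standard error in 6 muscle comparisons, 1 panel each, from edgeR; red points have an adjusted p under 0.05. Red points stand for 7 of the 8 members in obese against lean controls, the Myh1 row alone is red in obese against lean pFUS rats, and the 4 panels of pFUS against control hold none.

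Other genes of both fibre types were counted in the same pair of groups, where 3397 of all 12577 genes rose and 3213 fell, 52.6% in all. For fibre genes, regulators and striated muscle, adipocyte and cardiac markers, the counts below were the same under DESeq2's size factors. They were also the same with the RNAs lacking a poly(A) tail removed. Of 11 other slow fibre genes, 5 rose and 0 fell in obese controls, a share called no higher than over all genes; their median log2 fold change was 1.99, beside 0.07 over all genes. Among them Mb, which encodes myoglobin, rose by 3.47 ± 0.51 on the log2 scale, Myoz2 by 3.63 ± 1.34, Tpm3 by 2.63 ± 0.85 and the calsequestrin Casq2 by 1.93 ± 0.77. The fifth, the calcium pump inhibitor Sln, was at 0 counts in all 4 lean controls and had 0.991 CPM over the pooled obese controls, which is at least 13.4-fold higher with a floor of 3 counts over the lean group.

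Of 11 fast sarcomere and calcium genes, 6 rose and 0 fell, a share called close to the 52.6% of all genes, with a median log2 fold change of 0.77 beside 0.07. The genes that rose included the fast troponins Tnni2 by 1.23 ± 0.27 and Tnnc2 by 1.19 ± 0.21, the tropomyosin Tpm1 by 1.13 ± 0.28 and the Z-disc gene Myoz1 by 1.12 ± 0.26, on the log2 scale. Of 10 fast glycolytic genes, whose median log2 fold change was 0.73, 5 rose, including lactate dehydrogenase Ldha by 0.92 ± 0.22 and muscle enolase Eno3 by 0.92 ± 0.23, and 1 fell, Phka1, by -0.67 ± 0.20. Creatine kinase Ckm rose by 1.11 ± 0.34 on the same scale. It is 1 of 8 tested markers of striated muscle, of which 2 rose and 2 fell, beside 52.6% of all genes called. Their median log2 fold change was 0.05.

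Of 19 regulators of fibre type, 12 fell, 3 rose and 4 were not called, beside 52.6% of all genes called; their median log2 fold change was -0.91, beside 0.07 over all genes. Sox6, which represses slow genes in the fast fibres of mice, fell by 2.00 ± 0.29 on the log2 scale, with 17.7 ± 8.79 CPM in obese controls and 74.0 ± 6.03 CPM in lean controls (SD, n = 5 and 4). Tead1, which binds MCAT sites, fell by 1.96 ± 0.40, Ppargc1a, a coactivator of oxidative and slow fibre genes, by 1.92 ± 0.37, and Prox1, which mice need for slow fibres, by 1.75 ± 0.48. Esrra, Rcan1 and Myog rose, by 0.96 ± 0.22, 0.75 ± 0.26 and 0.67 ± 0.26.

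Markers of other tissues moved with the same groups, and their part in these results was not tested. All 8 adipocyte markers rose in obese controls, with Adipoq at 3.72 to 83.6 CPM in obese controls and 3.10 to 7.47 CPM in lean controls. Of the 4 cardiac markers that could be tested, Myh6, Myl4 and Gja5 rose; Myh6, the cardiac fast chain, averaged 1.83 ± 1.63 CPM in obese controls and 0.0575 ± 0.115 CPM in lean controls (SD, n = 5 and 4). The cardiac genes Nppa, Nppb and Myl7 were at 0 in all of these libraries.

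Among pFUS rats, the obese and lean groups did not repeat this separation of the slow genes. In obese against lean pFUS rats, 1 of 8 members was called, beside 40.8% of 12577 genes. The Myh1 row averaged 58174 ± 8417 CPM in obese pFUS rats (SD, n = 5) and 93160 ± 25887 CPM in lean pFUS rats (SD, n = 4), a log2 fold change of -0.78 ± 0.23 (edgeR adjusted p = 0.0114), and here the groups overlapped. For the slow members the log2 fold changes lay between -1.83 ± 1.54 for Myh7 and 1.42 ± 1.20 for Myl3, with none called. Of the other slow fibre genes 1 of 11 rose, Sln, and 1 fell, Mybpc1, while 7 of 11 fast sarcomere and calcium genes rose and 13 of 19 regulators fell. In the same contrast all 8 adipocyte markers rose, with a median log2 fold change of 3.39, and all 4 liver markers fell, with a median of -6.92; their part in these results was not tested.

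Within the obese ZDF rats at 7 weeks, no member differed between pFUS and control beyond the spread between rats. The call count was 0 of 8, beside 0.119% of 12577 genes, 0 members had an unadjusted p under 0.05, and DESeq2 called 0. Myh7 had 7.34, 24.5, 493, 211 and 324 CPM in pFUS rats 6 to 10, against 406, 837, 124, 763 and 348 CPM in controls 1 to 5. The lowest pair of values belonged to pFUS rats, but the groups overlapped, and the log2 fold change was -1.37 ± 1.47 (edgeR adjusted p = 0.908). The Myh1 row had 68807, 48536, 58429, 63737 and 51363 CPM in pFUS rats and overlapped the controls given above, with a log2 fold change of -0.19 ± 0.22 (edgeR adjusted p = 0.914). This comparison shares its control rats with obese against lean controls.

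In the lean rats, slow genes were high in 2 pFUS muscles and low in the other 2. Myh7 had 1292, 1464, 7.05 and 0.477 CPM in lean pFUS rats 16 to 19, against 107, 6.69, 54.7 and 0.419 CPM in lean controls 11 to 14. Rats 16 and 17 exceeded every control, while rats 18 and 19 lay inside the range of the controls. Tnnt1 showed the same division, at 186, 199, 1.89 and 0.573 CPM in the pFUS rats, against 14.5, 0.163, 6.03 and 0.105 CPM in the controls. Of the 8 members, 0 were called, beside 0% of 12577 genes; 7 had an unadjusted p under 0.05, as had 5.84% of all genes, with log2 fold changes between 1.62 and 4.46, the lowest edgeR adjusted p was 0.624, and DESeq2 called 0. The liver gene Alb stood at 1538 CPM in lean pFUS rat 16, and its part in the levels of that library was not tested. Other muscle libraries held Alb too, at 835 CPM in 3-day x1 rat 33, 617 CPM in 3-day control 42 and 529 CPM in AM & PM x1 rat 21. Its part there was not tested either.

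The pFUS effect in obese rats minus that in lean rats was negative for the slow members, between -5.65 ± 2.07 for Tnnt1 and -2.27 ± 0.72 for Atp2a2 on the log2 scale. It was called for 0 of 8 members, beside 0% of genes, with 7 at an unadjusted p under 0.05, as were 4.30% of all genes, and 0 called by DESeq2.

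At 3 days, Myh7 had 4148, 383, 2532 and 1797 CPM in controls 41 to 44, 66.0, 488, 484 and 2.79 CPM in x1 rats 33 to 36, and 1907, 2354, 845 and 6569 CPM in x10 rats 37 to 40. All 4 x1 rats lay below all 4 x10 rats, and x1 overlapped the controls through control 42. Atp2a2 had 778, 226, 769 and 586 CPM in the controls, 100.2, 336, 202 and 81.9 CPM in x1 rats, and 691, 723, 340 and 1801 CPM in x10 rats. It again put every x1 rat below every x10 rat, although x1 rat 34 at 336 CPM and x10 rat 39 at 340 CPM nearly met.

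None of the 3 contrasts at this time called a member. For x1 against control, 0 of 8 were called, beside 0.00816% of 12259 genes; Atp2a2 had a log2 fold change of -1.68 ± 0.65 (edgeR adjusted p = 0.456) and Myh7 of -3.03 ± 1.33 (edgeR adjusted p = 0.477), and both had an unadjusted p under 0.05, as had 10.4% of all genes. For x10 against control, 0 of 8 were called, beside 1.52% of genes, and the Myh1 row, at 70239 ± 18255 CPM in x10 rats and 99082 ± 7032 CPM in controls (SD, n = 4 each), had a log2 fold change of -0.52 ± 0.24 (edgeR adjusted p = 0.222) and an unadjusted p under 0.05, as had 21.5% of all genes. Of the regulators, Sox6 was called in that contrast and fell by 0.53 on the log2 scale (edgeR adjusted p = 0.0433).

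For x10 against x1 at 3 days, 0 of 8 members were called, beside 0% of genes. The groups did not overlap for Myh7, Myl2, Tnnt1, Tnni1, Tnnc1 and Atp2a2, whose log2 fold changes lay between 2.28 ± 0.66 (Atp2a2) and 3.47 ± 1.14 (Myl2) with edgeR adjusted p of 0.496 to 0.547. All 6 had an unadjusted p under 0.05, as had 8.65% of all genes tested, and DESeq2 called 0 members in each of the 3 contrasts. How many of all genes did not overlap between x10 and x1 was not counted, and the slow members moved together from rat to rat.

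At 4 weeks AM & PM x10 overlapped both other schedules for every member. Myh7 had 250, 3130, 11731 and 981 CPM in AM & PM x10 rats 29 to 32, against 3080, 1780, 3755 and 8289 CPM in AM & PM x1 rats 21 to 24 and 2414, 113, 889 and 442 CPM in AM only x10 rats 25 to 28. The AM & PM x10 group held both the highest value of all muscles and a value below every AM & PM x1 rat. In AM & PM x10 against AM & PM x1, 0 of 8 members were called, beside 0% of 12199 genes, and 0 had an unadjusted p under 0.05; the log2 fold change of Myh7 was -0.06 ± 1.15. AM & PM x1 rats lay wholly above AM only x10 rats for Myl2, Tnnt1, Tnni1, Tnnc1 and Atp2a2, with Tnnt1 at 349.8 to 987 CPM in AM & PM x1 rats and 11.2 to 233 CPM in AM only x10 rats. That pair differs in both the time of day and the label x1 or x10, and its difference was not tested. For Atp2a2 the lowest AM & PM x1 rat, at 778 CPM, lay close above the highest AM only x10 rat, at 721 CPM. Myh7, Myl3 and the Myh1 row overlapped. How many of all genes separate in this way was not counted, and the slow members moved together from rat to rat.

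In AM & PM x10 against AM only x10, 0 of 8 were called, beside 0% of genes, and Myl2 and Tnnc1 had an unadjusted p under 0.05, as had 3.74% of all genes. Myl2 averaged 23.6 ± 23.8 CPM in AM & PM x10 rats and 4.51 ± 2.77 CPM in AM only x10 rats, and Tnnc1 averaged 307 ± 312 CPM in AM & PM x10 rats and 61.8 ± 45.2 CPM in AM only x10 rats (SD, n = 4 each). The edgeR adjusted p of both was 0.999, and DESeq2 called 0 members in either contrast.

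In the DIO-stz rats, with sex as a term, 0 of 8 members were called for pFUS against control, beside 0% of 12640 genes, 0 members had an unadjusted p under 0.05 and DESeq2 called 0. Myh7 had 2380, 959, 6.18 and 2914 CPM in pFUS rats 7, 8, 9 and 11, against 845, 35.5, 396 and 1.53 CPM in controls 3 to 6. All but 1 of the pFUS rats exceeded every control, and the exception, rat 9, lay under all controls but 1, with a log2 fold change of 2.59 ± 1.82 (edgeR adjusted p = 0.823). The Diet Resistant females had Myh7 at 3021 and 223 CPM, which spans much of the same range.

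Muscle genes were carried in several adipose libraries, and with them came members of the list. In the 6 libraries with Ckm at 1000 CPM or more, the Myh1 row stood at 87895 and 10344 CPM in obese pFUS rats 6 and 9, at 113252, 105769 and 102284 CPM in lean pFUS rats 17 to 19 and at 114381 CPM in lean control 12. In the other 42 it had a median of 3.10 CPM, and lean control 11 was highest among these at 3310 CPM. The fat hormone gene Adipoq was 15.6 and 1547 CPM in the 2 obese libraries, 0.695, 7.57 and 0.162 CPM in the 3 lean pFUS libraries and 15.3 CPM in lean control 12, against 516 to 11645 CPM in the other 42. The 5 with Adipoq at 15.6 CPM or less went against their tissue label.

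The muscle RNA in these libraries differed in its slow genes. Whether muscle entered the fat samples or labels were wrong was not tested. Myh7 had 2820 and 348 CPM in the adipose libraries of obese pFUS rats 6 and 9, and 0.174, 2.87 and 9.24 CPM in those of lean pFUS rats 17 to 19 and 23.2 CPM in that of lean control 12. The slow share was 3.11 and 3.25% in the 2 obese libraries and 0.000153 to 0.0203% in the 4 lean ones. In the muscle library of the same rat it was 0.0107 and 0.330% in obese pFUS rats 6 and 9, 2.12, 0.00605 and 0.000417% in lean pFUS rats 17 to 19 and 0.00482% in lean control 12. The 3 lean rats 18, 19 and 12 were very low in both libraries, at 0.00271, 0.00904 and 0.0203% in the adipose ones. Obese rats 6 and 9 were higher in the adipose library, and lean rat 17 was higher in the muscle library.

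**Figure D5:**
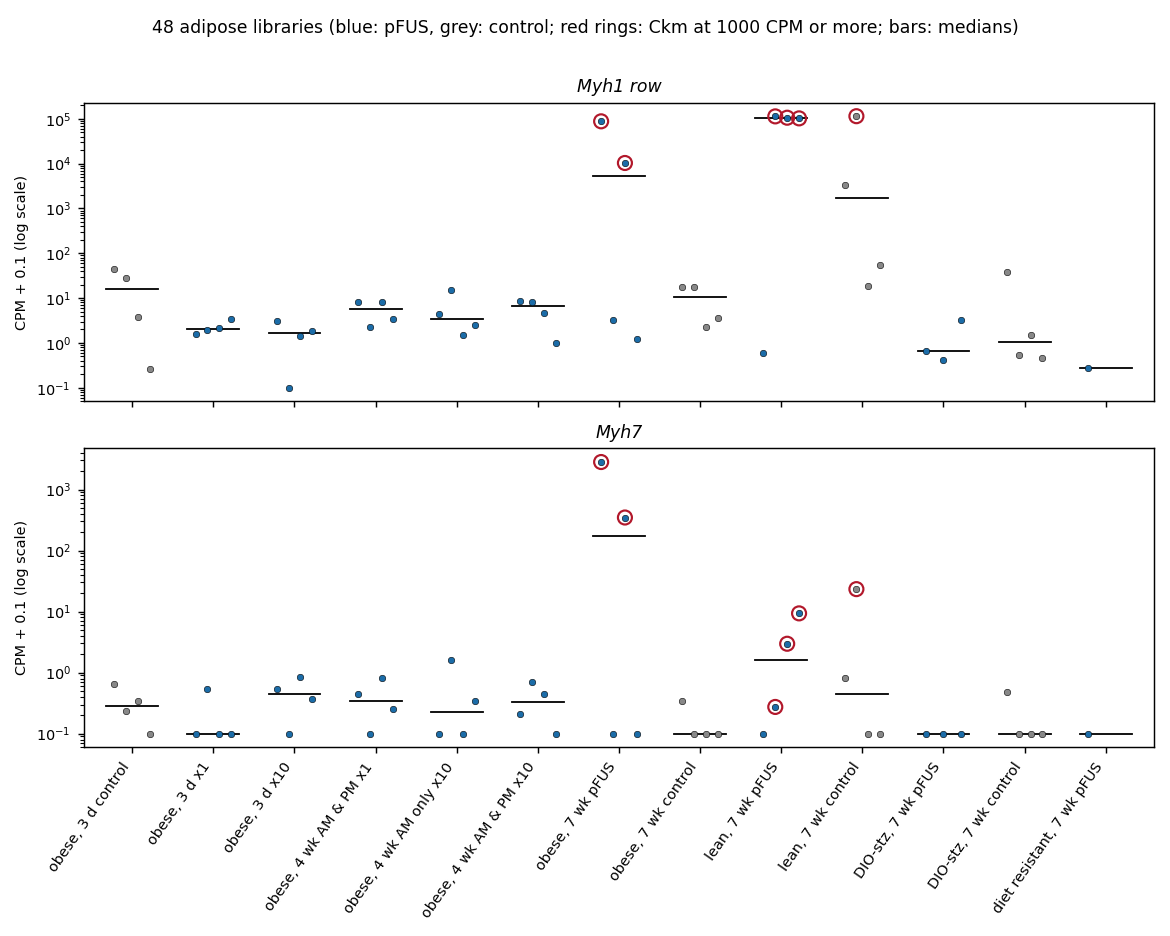
CPM of the Myh1 row and of Myh7 in the 48 adipose libraries by group, as CPM + 0.1 on a log axis, with red rings around the 6 libraries whose Ckm is 1000 CPM or more. The ringed libraries hold the Myh1 row at 10344 CPM or more, and among them Myh7 is above 100 CPM in the obese pair alone.

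In adipose tissue no member was called in any comparison by edgeR. The count was 0 of 6 tested members for obese against lean controls, beside 0.0291% of 13736 genes, 0 of 6 for obese pFUS against control, beside 0%, and 0 of 6 for lean pFUS against control, beside 0%. At 3 days it was 0 of 2 for x1 against control, beside 0.00748% of 13368 genes, and 0 of 2 for x10 against control, beside 0.0224%. In DIO-stz rats it was 0 of 4, beside 0.0464% of 15085 genes. The members not tested were too low to pass the count filter.

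For obese pFUS against control in adipose tissue, all 6 tested members had an unadjusted p under 0.05, as had 4.74% of all genes. DESeq2, run without the count filter, called 5 members: Myh7, Myl3, Tnnt1 and Tnnc1, which are among those 6, and Tnni1, which edgeR did not test. The remaining libraries of that group, of pFUS rats 8 and 10, had Myh7 at 0. With the 6 libraries left out, edgeR called 0 members. That left pFUS rats 8 and 10, with Myl3 at 0.505 and 0.550 CPM and Tnnc1 at 0.883 and 0.413 CPM. At such levels the slow members other than Atp2a2 could hardly be tested, so this 0 says little about them. Unadjusted p were under 0.05 for 2 members in obese against lean controls (11.3% of all genes), 0 in lean pFUS, 1 in x1 (3.96%) and 1 in x10 (9.93%) against control at 3 days and 0 in DIO-stz rats, with 0 called by DESeq2 in each of these.

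Outside muscle and these libraries, Atp2a2 was the 1 member present in every library at 1 CPM or more. Its median was 877 CPM in brain, 389 in intestine, 316 in kidney, 249 in liver, 76.8 in pancreas and 6.99 in blood, and 299.6 CPM in the 42 adipose libraries without much Ckm. The pump it encodes fills calcium stores in most cell types. Tnnc1 had a median of 13.4 CPM in kidney, and Myh7 one of 4.61 CPM in brain, where it was at 1 CPM or more in all 31 libraries.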

How the data were processed

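RNA of 287 rat libraries was measured, and the authors deposited whole-number expected counts per gene and per isoform. Per the submitters' processing notes these came from STAR 2.5.3a and RSEM on Rnor_6.0, with no annotation release named. The labels name a stranded mRNA kit for muscle and a total RNA kit for adipose tissue. CPM were computed from the deposited counts over the library total of all genes. Groups were compared with edgeR 4.0.16 in R 4.3.3: TMM factors, filterByExpr with a minimum count of 10, and the quasi-likelihood test, fitted over all genes of a cohort and adjusted by Benjamini-Hochberg at 0.05; the standard error is the log2 fold change over the root of F. The DIO cohort had sex as a term. DESeq2 1.42.0, another scaling, no filter, each library left out and the adipose libraries with muscle left out were the alternatives. The scripts were tested on simulated data. Labels number separate rats, and of 150 pairs of libraries compared within groups 0 were identical. Likeness was the correlation of within-group deviations of log2(CPM + 1) with the mean of the 7 slow members; the 6 highest and 4 lowest genes were named, and from each list up to 4 called genes of largest change; Casq2, Phka1, Esrra, Rcan1, Myog and Ckm were added after their values were seen. Members, lists and alternatives were chosen with earlier results of these data known.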

Additional observations from a re-analysis of the deposited data

Results flagged for a closer look

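Among muscle groups of 4 or 5 rats, 5 of 108 sets of values held a library far from the rest of its group, where chance gives about 1 in 20. The library of x10 rat 40 at 3 days stood above its group with 991 CPM of Tnnt1 (the others had 141 to 277 CPM), 678 CPM of Tnnc1 (132 to 177 CPM) and a slow share of 11.1% (1.44 to 2.51%). The Myh1 row was low in 3-day control 43, at 88539 CPM, where the others had 102277 to 102840 CPM. Myl3 was high in obese control 4 at 7 weeks, at 739 CPM, where the others had 228 to 370 CPM.

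In adipose tissue 10 of 22 sets held such a library. Obese pFUS rat 6 at 7 weeks had 87895 CPM of the Myh1 row and 2820 CPM of Myh7, and lean control 12 had 114381 CPM of the Myh1 row and 23.2 CPM of Myh7. Lean pFUS rat 16 was the low one of its group, at 0.485 CPM of the Myh1 row, where the others had 102284 to 113252 CPM. DIO-stz control 3 had 38.1 CPM of the Myh1 row, where the others had 0.362 to 1.43 CPM, and 0.382 CPM of Myh7. Lesser values of Myh7 stood out at 1.53 CPM in AM only x10 rat 26 at 4 weeks, 0.434 CPM in x1 rat 34 at 3 days and 0.239 CPM in obese control 1 at 7 weeks. In the sets of x1 rat 34, obese control 1 and DIO-stz control 3, every other library had Myh7 at 0. A lone library above 0 is always flagged in such a set, and these rest on 4, 2 and 6 Myh7 counts.

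In tissues that entered no comparison, DIO-stz control 4 had 231 CPM of the Myh1 row in kidney, where the other 20 libraries had at most 0.605 CPM, and its Ckm was 68.6 CPM. The same rat had 19.9 CPM of the Myh1 row in intestine, where the other libraries had at most 1.26 CPM.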

How the results depend on the processing

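No paired analysis was possible because the groups compared share 0 replicate numbers. For obese against lean controls in muscle, leaving out each library in turn gave 4 to 7 members called, with 4 without lean control 12 or lean control 14; 6 were called with no filter on low counts, 8 by DESeq2 and 8 when only the groups compared were fitted. Myl2 missed the threshold in 7 of 14 alternatives, with a highest adjusted p of 0.0973, Tnnt1 in 2 (0.0570) and Tnni1 in 2 (0.0547), while Myh7 passed it in 2 of 14, with a lowest adjusted p of 0.0218. The Myh1 row, Myl3, Tnnc1 and Atp2a2 kept their call in all 14, and 0 of the members changed direction. The Myh1 row kept its call in obese against lean pFUS rats in all 14 alternatives, with a highest adjusted p of 0.0436. In the other muscle comparisons each alternative called 0 members. In adipose tissue DESeq2 called 5 members for obese pFUS against control and 0 elsewhere; without the libraries that carry muscle or high Umod or Ucp1, lean pFUS could not be fitted because no library was left. Of the 10 genes named for likeness, 5 were named again from the obese ZDF libraries alone and 9 with a pseudocount of 0.5. The cause of these shifts was not tested. Leaving out 1 rat moved the mean slow share between 1.63 and 6.01% in AM & PM x10 rats and between 2.10 and 5.32% in 3-day x10 rats. In the 7-week ZDF and lean adipose comparisons, Myl2 and Tnni1 were too low to pass the count filter and had no edgeR test. The same held in adipose tissue at 3 days for all members but Atp2a2 and the Myh1 row.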

Other observations

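Myl3 and Myh7 were not in a fixed ratio across cohorts. Counts of Myl3 per count of Myh7 had a median of 1.23 in the 10 obese ZDF muscles of 7 weeks, where they ran between 0.442 and 13.5, and a median of 0.166 in the 8 lean muscles, where they ran between 0 and 3.60. The median was 0.452 in the 10 DIO muscles of 7 weeks, 0.230 in the 12 obese ZDF muscles of 3 days and 0.193 in the 12 of 4 weeks, so the obese ZDF cohorts differed among themselves. The ratio is of counts, not per length. Its extremes came from libraries with little Myh7: the lean 0 and 3.60 rest on 4 and 5 Myh7 counts. The obese 13.5 rests on 382. The obese 7-week and DIO muscles also had the lower share of RNAs lacking a poly(A) tail, and its part in this ratio was not tested.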
